A study of Rattus norvegicus with 22 samples.

Results

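RT1-Da and RT1-Db1 encode the α chain and a β chain of a classical rat major histocompatibility complex (MHC) class II molecule, the rat counterpart of human HLA-DR. Both genes were taken by symbol, through the pairing of symbols with Ensembl identifiers in the study's tables, as ENSRNOG00000032844 for RT1-Da and ENSRNOG00000033215 for RT1-Db1. They were 2 of the 32545 identifiers counted. RNA-seq read counts of the cortex were available for 11 adult male rats, each sampled in both hemispheres, which gave 22 libraries of 42085341 to 63412426 counts. In 6 rats a penetrating ballistic brain injury (PBBI) had been made in the right frontal cortex, by a probe whose balloon opened a cavity under pressure. The other 5 were sham rats, which went through the same surgery and handling but had no probe inserted. All 11 rats, labelled Sprague-Daley (the outbred Sprague-Dawley stock), carried electrodes for sleep recording, and the tissue was taken after a recording of 24 h that followed the procedure. The ipsilateral samples came from the side of the injury (or of the sham operation) and the contralateral samples from the other side, so the 4 groups were PBBI ipsilateral (n = 6), sham ipsilateral (n = 5), PBBI contralateral (n = 6) and sham contralateral (n = 5). The labels of both libraries of PBBI rat 81 and of the contralateral library of sham rat 82 hold the letters PFC, unlike the others. Whether another part of the cortex was sampled there is not stated, and all libraries were treated as cortex.

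MHC class II molecules are heterodimers of an α and a β chain that carry peptides from proteins taken up by the cell to its surface, where CD4+ T cells read them. They are made at high levels by dendritic cells, B cells and activated macrophages, and in brain they are known as markers of microglial activation and of infiltrating or perivascular myeloid cells. In most cells their transcription depends on the transactivator CIITA, which is recruited by factors that sit on conserved X and Y boxes in class II promoters and is induced by interferon gamma. In whole tissue, a rise in the number of cells that carry the transcript and a rise in RNA per cell cannot be told apart.

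The promoters of both genes are shown because the levels of the 2 chains moved together across libraries. Both were found in the RefSeq promoter set of the GRCr8 build (250 bases before to 50 after each start site), and each held the core of an X box followed by a Y box. The stretches run 5′ to 3′ on the coding strand, with the X box core (AGCAAC) and the Y box (TGATTGG) in capitals. The promoter of RT1-Db2, the neighbouring β chain gene, is given for comparison.
RT1-Da: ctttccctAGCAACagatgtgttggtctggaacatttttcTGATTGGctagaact
RT1-Db1: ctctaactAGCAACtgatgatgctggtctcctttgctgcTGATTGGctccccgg
RT1-Db2: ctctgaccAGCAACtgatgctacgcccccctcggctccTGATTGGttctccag

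The RT1-Da stretch lies at chr20:4515324-4515378 on the plus strand, the RT1-Db1 stretch at chr20:4560230-4560283 on the minus strand and the RT1-Db2 stretch at chr20:4541700-4541752 on the minus strand (GRCr8). The boxes were 26 bases apart in RT1-Da, 25 in RT1-Db1 and 24 in RT1-Db2, and the Y box ended 44, 75 and 112 bases before the start site. Searched on both strands, the X box core stood in 4909 of 33469 promoters (14.7%) and the Y box in 2364 (7.06%), and the 2 motifs do not overlap. Both followed each other in this order on the same strand, with at most 40 bases between them, in 39 promoters (0.117%). Of 10 class II genes looked up, 9 were in the set, all 9 held the Y box and 6 held the pair, those of RT1-Da, RT1-Db1, RT1-Db2, RT1-DOa, RT1-DOb and RT1-Ha, while RT1-Ba, RT1-Bb and RT1-DMa held the Y box letters alone. The motifs are known from class II genes and were spelled with these promoters in view, so the match is a description of the letters.

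The counts were made on an earlier build, Rnor 6.0. On GRCr8, RT1-Da, RT1-Db2 and RT1-Db1 are neighbours, followed by RT1-Ba and RT1-Bb. RT1-Db1 and RT1-Db2 are similar in sequence, so reads may have been split or lost between them, and the RT1-Db1 counts are uncertain to that degree.

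In the injured hemisphere, RT1-Da was measured at 26.5, 17.2, 13.6, 15.4, 7.67 and 18.8 CPM (read counts scaled to the size of each library) in PBBI rats 81, 83, 85, 88, 90 and 96, from 536 to 1693 counts. In the same hemisphere of sham rats 82, 84, 86, 91 and 94 it was 4.90, 7.53, 5.83, 2.16 and 16.5 CPM, from 136 to 1001 counts. Rats 81, 83 and 96 were above every sham rat, no PBBI rat was below all of them, and the groups overlapped through sham rat 94 alone. The group means were 16.5 CPM ± 6.22 (SD, n = 6) after PBBI and 7.38 CPM ± 5.44 (SD, n = 5) after sham.

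RT1-Db1 was lower in level and overlapped more between the groups. It was 18.7, 7.86, 13.5, 5.01, 3.59 and 10.2 CPM ipsilaterally in PBBI rats 81, 83, 85, 88, 90 and 96, and 2.76, 3.82, 4.49, 1.44 and 9.94 CPM in sham rats 82, 84, 86, 91 and 94. Rats 81, 85 and 96 exceeded every sham rat, rats 83, 88 and 90 were within the range of the sham group, and sham rat 94 was again the highest of the sham rats. The place of rat 85 above sham rat 94 rests on the normalization of library sizes (TMM). Before it, rat 85 had 596 counts in a library of 62672856 and rat 94 had 604 in one of 60395227. The means were 9.80 CPM ± 5.61 (SD, n = 6) and 4.49 CPM ± 3.26 (SD, n = 5).

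**Figure D1:**
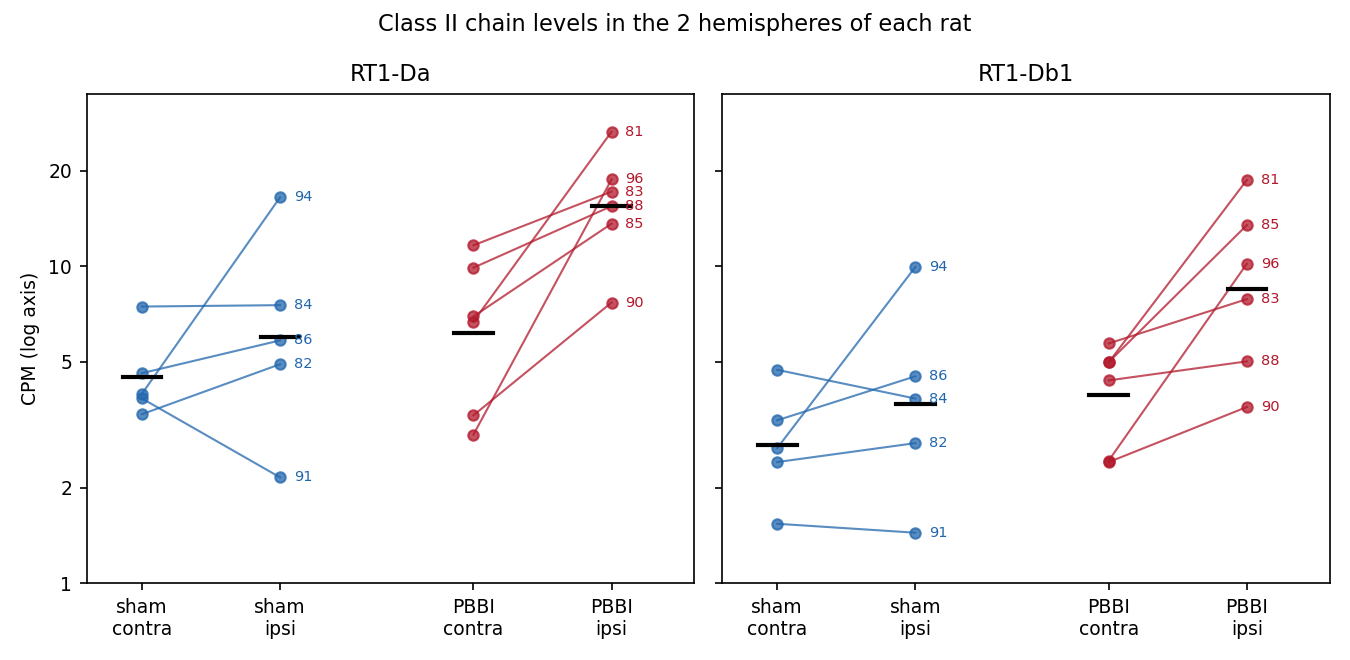
CPM (log axis) of RT1-Da and RT1-Db1 in the contralateral and ipsilateral cortex of 5 sham and 6 PBBI rats. Each line joins the 2 hemispheres of a rat, the number at its end names the rat and the black bars are geometric means. All 6 lines of the PBBI rats rise for both genes, and the steepest sham line is that of rat 94.

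Neither chain passed the threshold for the ipsilateral comparison. The fitted log2 fold change of PBBI over sham was 1.16 (SE 0.46) for RT1-Da, with an adjusted p of 0.206 by edgeR's quasi-likelihood test with Benjamini-Hochberg adjustment (unadjusted p = 0.0257). For RT1-Db1 it was 1.12 (SE 0.52), with an adjusted p of 0.299 by the same edgeR test (unadjusted p = 0.0513). By the same rule 753 of 16104 genes (4.68%) were called in this comparison, 659 of them higher (4.09%). The fitted increase of RT1-Da was matched or exceeded by 7.64% of the genes tested and that of RT1-Db1 by 7.98%. An exact permutation test of the mean log2 CPM over rats (two-sided) gave p = 0.026 for RT1-Da and p = 0.0649 for RT1-Db1, where the smallest p that 6 rats against 5 allow is 0.00433. In all, 4.71% of the genes tested had every PBBI library on the same side of every sham library in this hemisphere, and neither chain was among them.

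Sham rat 94 carried much of the spread, and it was singled out after its values were seen. Without it the ipsilateral log2 fold change was 1.69 (SE 0.42, edgeR adjusted p = 0.0575) for RT1-Da and 1.65 (SE 0.52, edgeR adjusted p = 0.127) for RT1-Db1. In its contralateral cortex the same rat had 3.95 CPM of RT1-Da and 2.67 CPM of RT1-Db1, inside the range of the other sham rats. Marker lists were compared in the same library. The summed CPM of 6 neutrophil markers was 51.3 in its ipsilateral cortex, against at most 10.9 in the other sham rats, and was also the highest of the sham rats contralaterally (45.2 against at most 16.6). The 4 T cell markers summed to 2.14 CPM ipsilaterally, against at most 0.936 in the other sham rats, and were not the highest contralaterally (0.552 against 0.794). Its ipsilateral sums were also the highest of the sham rats, by less, for 2 microglial markers (41.6 CPM against at most 33.9), 5 dendritic cell markers (7.09 against 6.82), 2 B cell markers (0.148 against 0.111) and 3 astrocyte markers (947 against 754). The 14 macrophage and monocyte markers were not the highest ipsilaterally (404 CPM against 445 in another sham rat) but were contralaterally (353 against 329). Vascular markers were the lowest of the sham rats ipsilaterally (58.2 CPM). Their part in the class II values was not tested.

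In the hemisphere opposite the injury the chains were lower and closer between groups. RT1-Da was 6.68, 11.6, 6.94, 9.88, 3.38 and 2.94 CPM in PBBI rats 81, 83, 85, 88, 90 and 96, and 3.41, 7.45, 4.59, 3.82 and 3.95 CPM in sham rats 82, 84, 86, 91 and 94. RT1-Db1 was 4.97, 5.70, 4.98, 4.36, 2.41 and 2.44 CPM in the PBBI rats and 2.41, 4.71, 3.26, 1.54 and 2.67 CPM in the sham rats, in the same order. Rats 90 and 96 had the lowest PBBI values of both genes, and for RT1-Da they were below every sham rat. The contralateral means were 6.91 CPM ± 3.44 (SD, n = 6) against 4.65 CPM ± 1.62 (SD, n = 5) for RT1-Da, and 4.14 CPM ± 1.4 (SD, n = 6) against 2.92 CPM ± 1.18 (SD, n = 5) for RT1-Db1.

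A contralateral injury effect was not detectable for either chain. The fitted log2 fold changes were 0.57 (SE 0.36) for RT1-Da and 0.50 (SE 0.33) for RT1-Db1, each with an edgeR adjusted p of 1, and the exact permutation p over rats was 0.286 and 0.186. Without PBBI rat 83 the value of RT1-Da was 0.36, and without sham rat 84 that of RT1-Db1 was 0.76, with an edgeR adjusted p of 1 in both cases. Of 15907 genes tested contralaterally, edgeR called 0 (0%), while 366 had an unadjusted p under 0.05. DESeq2 called 3 without a prior on the fold changes and 0 with it, and limma voom with sample quality weights called 1. With those weights both chains were lower in PBBI contralaterally, by 0.20 and 0.12 on the log2 scale.

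Because both hemispheres of each rat were sampled, each rat also served as its own reference. RT1-Da was higher ipsilaterally in 6 of 6 PBBI rats, by 3.97-fold in rat 81, 1.48-fold in rat 83, 1.96-fold in rat 85, 1.56-fold in rat 88, 2.27-fold in rat 90 and 6.38-fold in rat 96. RT1-Db1 was higher ipsilaterally in the same 6 rats, by 3.76, 1.38, 2.70, 1.15, 1.49 and 4.18-fold in that order. Rats 81 and 96 had the largest hemispheric folds for both chains. The exact sign-flip permutation test gave p = 0.0313 for each gene, the smallest value that 6 pairs allow.

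In sham rats the direction of the difference between hemispheres varied, and the difference was largest in rat 94. The ipsilateral to contralateral fold of RT1-Da was 1.44, 1.01, 1.27 and 0.564 in rats 82, 84, 86 and 91 and 4.17 in rat 94. For RT1-Db1 it was 1.15, 0.812, 1.38 and 0.937 in rats 82, 84, 86 and 91 and 3.73 in rat 94. Some sham gaps exceeded those of PBBI rats. On the log2 scale, rat 91 was at -0.82 for RT1-Da, against 0.56 and 0.64 in PBBI rats 83 and 88. For RT1-Db1, rats 84 and 86 were at -0.30 and 0.46, against 0.20 in PBBI rat 88. The exact permutation p over the 5 sham pairs was 0.438 for RT1-Da and 0.375 for RT1-Db1, and 5 pairs cannot go below 0.0625.

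Within the PBBI rats, the log2 difference between hemispheres was 1.27 (SE 0.37, edgeR adjusted p = 0.0747) for RT1-Da and 1.26 (SE 0.39, edgeR adjusted p = 0.1) for RT1-Db1 when the libraries were treated as unpaired. Of 15973 genes tested, 568 (3.56%) were called. With the rat as a block, which uses the pairing of the 2 hemispheres, the difference was 1.33 (SE 0.30, edgeR adjusted p = 0.0302) for RT1-Da, which passed the threshold, and 1.12 (SE 0.30, edgeR adjusted p = 0.0509) for RT1-Db1, which did not. The block raised the number of genes called to 1646. Within the sham rats the unpaired log2 difference was 0.67 for RT1-Da and 0.63 for RT1-Db1, and 0.09 and 0.08 without rat 94. There edgeR called 0 of 15747 genes (0%), with 47 at an unadjusted p under 0.05, and DESeq2 and limma voom also called 0.

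Whether the injury effect itself differed between hemispheres was tested directly. The difference of the 2 injury effects was 0.59 (SE 0.60) on the log2 scale for RT1-Da and 0.62 (SE 0.63) for RT1-Db1, each with an edgeR adjusted p of 0.924, in a comparison that called 0.326% of 16587 genes. With the rat as a block it was 0.91 (SE 0.51, edgeR adjusted p = 0.353) and 0.69 (SE 0.46, edgeR adjusted p = 0.464), and neither was called. The unblocked value was 1.17 and 1.16 without sham rat 94, 0.36 and 0.32 without sham rat 84, and 0.40 and 0.39 without PBBI rat 81. The exact permutation test of the per-rat differences, PBBI against sham, gave p = 0.143 for RT1-Da and p = 0.165 for RT1-Db1. A larger ipsilateral than contralateral effect was therefore not shown for either chain. For both genes PBBI ipsilateral had the highest mean CPM and sham contralateral the lowest. Sham ipsilateral was above PBBI contralateral by the mean CPM and below it by the mean log2 CPM (2.59 against 2.63 for RT1-Da and 1.90 against 1.98 for RT1-Db1). The CPM ranges of sham ipsilateral, PBBI contralateral and sham contralateral overlapped for both genes.

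**Figure D2:**
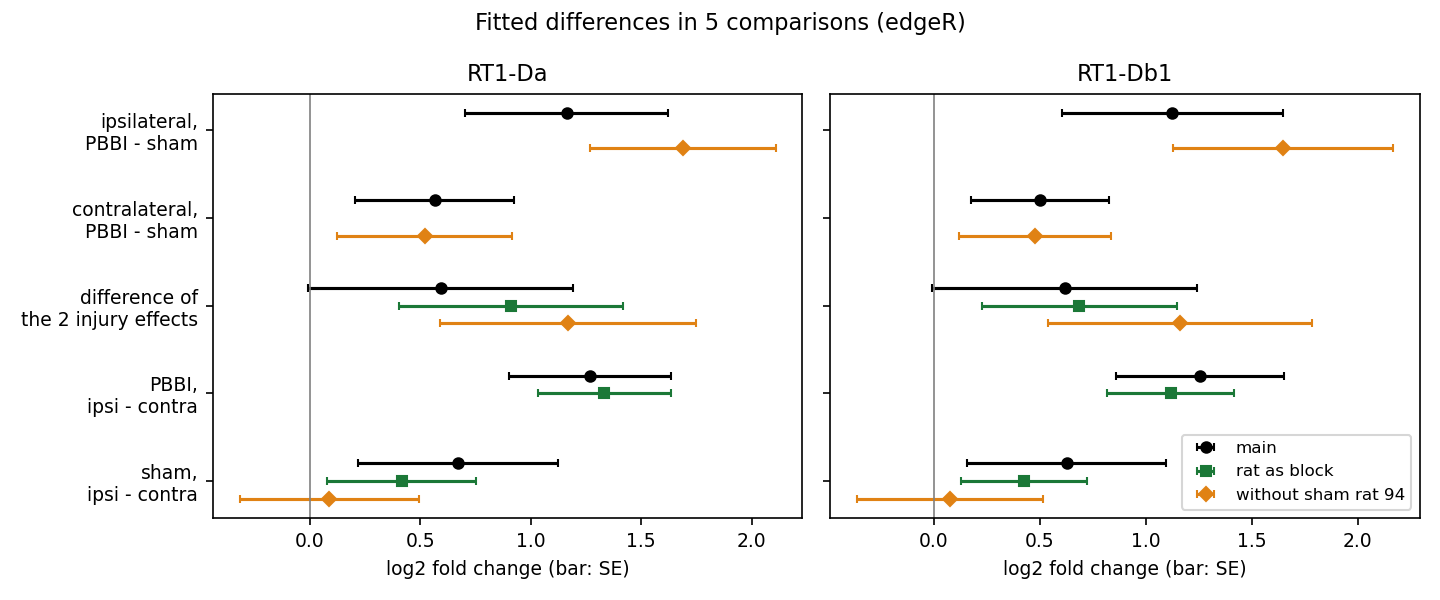
Fitted log2 fold changes (points) with their standard errors (bars) for RT1-Da and RT1-Db1 in 5 comparisons, from edgeR as reported, with the rat as a block, and without sham rat 94. The 2 chains gave similar values in each comparison, and leaving out sham rat 94 moved the ipsilateral effect to 1.69 and 1.65 and the sham hemispheric difference close to 0.

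The 2 chains followed each other across rats. In the ipsilateral hemisphere the log2 CPM values of RT1-Da and RT1-Db1 correlated with Pearson's r = 0.921 over 11 rats (permutation p = 9e-05, adjusted p = 0.00063 over 7 relations) and Spearman's rho = 0.864 (permutation p = 0.00126, adjusted p = 0.0071). Without rats 91 and 82, the 2 farthest from the median of RT1-Da, r was 0.83, and without sham rat 94 it was 0.916. In the contralateral hemisphere r was 0.866 (permutation p = 0.00123, adjusted p = 0.0043) and rho was 0.836 (permutation p = 0.00203, adjusted p = 0.0071), and r was 0.866 without rats 83 and 88. These values pool PBBI and sham rats, which overlap in level. The study had listed both genes for an association with sleep time in these same samples. The correlation is therefore not independent of how the genes were chosen, and its p values do not allow for that choice.

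Within the injured group alone the relation was less certain. Across the 6 PBBI rats r was 0.787 ipsilaterally (exact permutation p = 0.0528, adjusted p = 0.0739) and 0.92 contralaterally (exact permutation p = 0.0264, adjusted p = 0.0616), with rho of 0.657 (exact permutation p = 0.175, adjusted p = 0.245) and 0.771 (exact permutation p = 0.103, adjusted p = 0.18). Leaving out the 2 rats farthest from the median of RT1-Da left 4 rats. In them r was -0.191 ipsilaterally (exact permutation p = 0.875) and 0.255 contralaterally (exact permutation p = 0.708). So few rats over a narrowed range of RT1-Da cannot show whether the relation holds without the animals left out. No correlation was computed over the 5 sham rats alone, since at least 6 rats were required for one. Over all 22 libraries r was 0.923, and 0.863 after the mean of each of the 4 groups was subtracted.

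**Figure D3:**
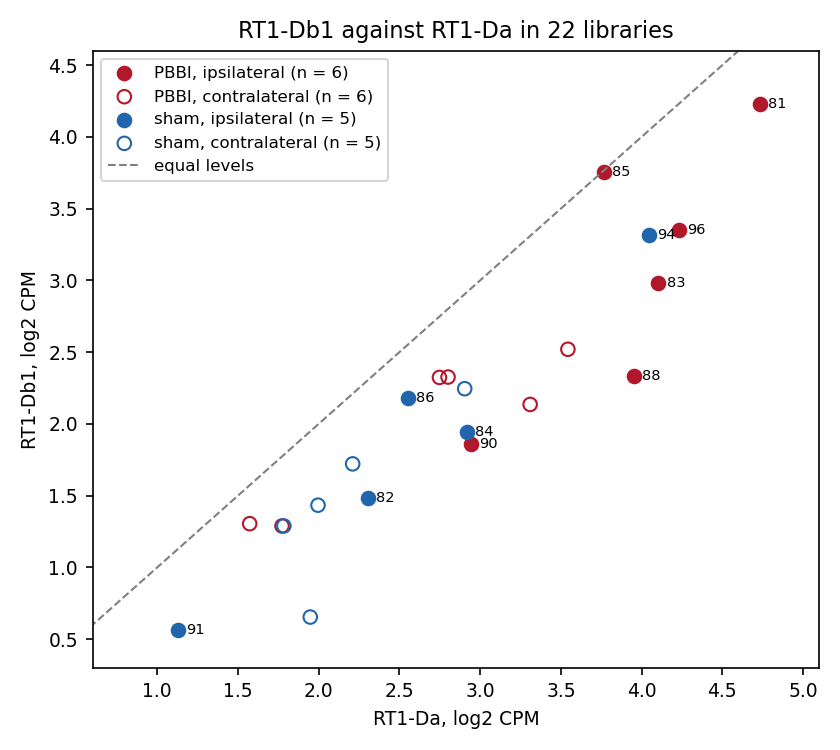
Log2 CPM of RT1-Db1 against RT1-Da in the 22 libraries, with ipsilateral libraries filled and numbered by rat, contralateral libraries open, and a dashed line where both would be equal. Every library lies under the line, PBBI rat 85 ipsilateral closest to it, and sham rat 94 ipsilateral falls among the injured libraries.

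The share of the chains was not the same in every animal. RT1-Da had the higher count in all 22 libraries. The ratio of RT1-Db1 to RT1-Da counts ran from 0.324 in rat 88 to 0.99 in rat 85, both ipsilateral PBBI libraries, and its mean was 0.581 ± 0.236 (SD, n = 6) in PBBI ipsilateral, 0.623 ± 0.101 (SD, n = 5) in sham ipsilateral, 0.656 ± 0.154 (SD, n = 6) in PBBI contralateral and 0.63 ± 0.13 (SD, n = 5) in sham contralateral cortex. The 4 means lay within their SDs of each other. Per kilobase of the counted length (2502 bases for RT1-Da and 3193 for RT1-Db1), the mean ratio was between 0.455 and 0.514 in the 4 groups. Across the 11 rats the log2 ratio in one hemisphere had r = 0.416 with that in the other (permutation p = 0.206, adjusted p = 0.216) and rho = 0.409 (permutation p = 0.212, adjusted p = 0.248), and r = 0.0456 without rats 85 and 88. How far the reads of each rat's own class II alleles aligned to the reference was not tested.

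The level in one hemisphere was a poor guide to the level in the other for RT1-Da. For RT1-Db1 a relation was not established, since it did not pass after adjustment. For RT1-Da the ipsilateral and contralateral log2 CPM had r = 0.404 over 11 rats (permutation p = 0.216, adjusted p = 0.216) and rho = 0.2 (permutation p = 0.554, adjusted p = 0.554), with r = 0.202 without rats 91 and 82. For RT1-Db1 r was 0.617 (permutation p = 0.042, adjusted p = 0.0734) and rho was 0.664 (permutation p = 0.03, adjusted p = 0.07), and r fell to 0.267 without rats 81 and 91. Rat 96 differed most between hemispheres, with the second highest RT1-Da of the PBBI rats ipsilaterally (18.8 CPM) and the lowest contralaterally (2.94 CPM).

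Among genes that could be named, each chain had the other as its closest match over the 22 libraries, of 16586 genes compared. After RT1-Db1, the named genes most like RT1-Da were Glipr1 (r = 0.873), Ifitm1, an interferon-induced membrane protein (0.866), Clec7a, the myeloid β-glucan receptor dectin-1 (0.865), and Hcst, the signalling adaptor DAP10 of natural killer and myeloid cells (0.863). After RT1-Da, those most like RT1-Db1 were Glipr1 (0.855), Lst1, a leukocyte-specific transcript of the MHC region (0.853), Hcst (0.837) and Cenpw, a centromere protein (0.83). Only 39 genes had r above 0.8 with RT1-Da and 24 with RT1-Db1, against a median r of -0.05 and -0.04 over all genes. For each chain 3 identifiers with no paired name ranked above the fifth named gene, and ENSRNOG00000000451 (r = 0.93 with RT1-Da) and ENSRNOG00000032708 (r = 0.928 with RT1-Db1) ranked first. These correlations share the libraries and the group differences and are a description.

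Of 21 other genes of class II presentation, 5 could be paired with an identifier, and the tables that name them mostly hold genes the study had called on these samples, so their direction is not independent evidence. Those 5 had a median ipsilateral log2 fold change of 1.33, against -0.02 over all genes. Of the 5, 2 rose by edgeR, against 4.09% of all genes. Ifi30, the lysosomal thiol reductase that unfolds antigens for class II loading, was 17.8 to 44.5 CPM (median 30.2) in PBBI and 6.67 to 15.9 CPM (median 8.66) in sham, with no overlap (log2 fold change 1.5, edgeR adjusted p = 0.0172). Lgmn, the lysosomal protease legumain, was 140 to 342 CPM (median 244) in PBBI and 80.1 to 139 CPM (median 110) in sham (log2 fold change 1.25, edgeR adjusted p = 0.0177), again without overlap.

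The costimulatory genes of antigen-presenting cells did not pass the ipsilateral test. Cd86 was 5.12 to 14.8 CPM in PBBI and 1.60 to 7.03 CPM in sham (log2 fold change 1.28, edgeR adjusted p = 0.11). Cd40, the receptor for the helper T cell ligand CD154, was 1.68 to 8.40 CPM against 0.424 to 1.82 CPM (log2 fold change 1.63, edgeR adjusted p = 0.0984). Cd80 was low, 0.271 to 1.06 CPM against 0.16 to 0.437 CPM (log2 fold change 1.33, edgeR adjusted p = 0.102). The ranges of all 3 overlapped between groups. Contralaterally none of the 5 was called by edgeR, with log2 fold changes from 0.02 to 0.66. Between the hemispheres of the PBBI rats Lgmn, Ifi30 and Cd86 were called (edgeR adjusted p = 0.0188, 0.0219 and 0.021), and Cd40 and Cd80 were not. That comparison called 3.56% of all genes.

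**Figure D4:**
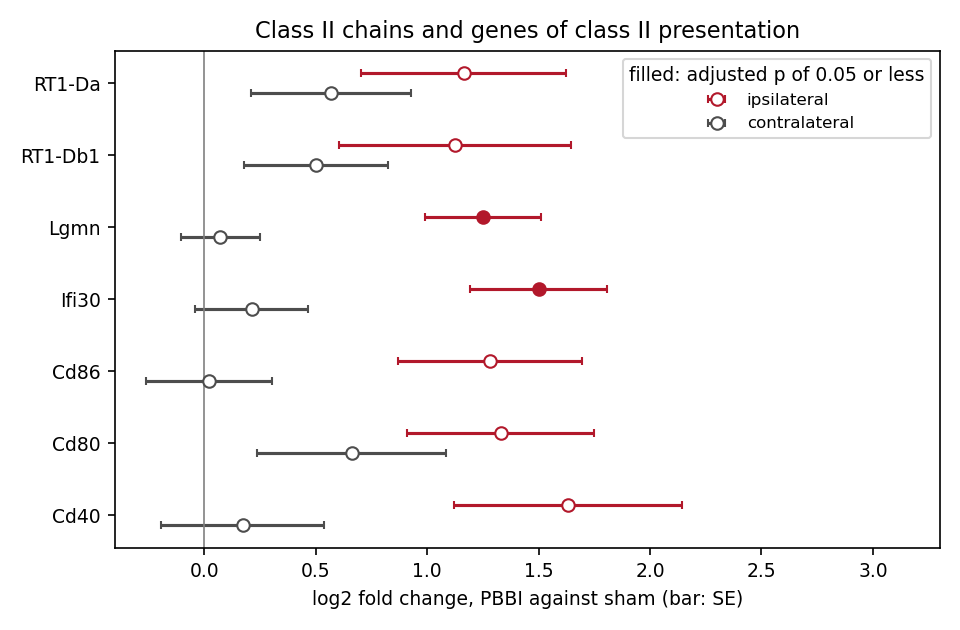
Log2 fold change of PBBI over sham (points) with its standard error (bars) for the 2 class II chains and 5 further genes of class II presentation, in the ipsilateral (red) and contralateral (grey) cortex. Filled points mark an edgeR adjusted p of 0.05 or less, which Lgmn and Ifi30 reached ipsilaterally. The chains lie at 1.16 and 1.12 ipsilaterally and are open points.

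The class I antigen pathway, which presents peptides from inside the cell, was followed for comparison. Of 38 listed genes 10 had an identifier, 3 rose ipsilaterally by edgeR (Tap1, Psmb8 and Erap1), none fell, and the median log2 fold change was 1.17, against 4.09% of all genes higher and a median of -0.02. Here and in the lists that follow, the names come mostly from genes the study had called on these samples, and their direction was known from these samples. The highest values were those of the class I genes RT1-CE16 (2.12, adjusted p = 0.147) and RT1-CE10 (1.42, adjusted p = 0.116), and the lowest those of RT1-T24-2 (-1.45, adjusted p = 0.11) and the peptide-loading chaperone Tapbp (0.68, adjusted p = 0.131), none of which passed the edgeR test. Class I genes of this family are near-identical, and their counts are uncertain. In sham rat 94 the summed level of the 10 genes was the highest of the sham rats in both hemispheres, 87.1 CPM ipsilaterally against at most 63.9 and 94.5 CPM contralaterally against at most 62.2.

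Of 31 genes of interferon signalling and response, 8 had an identifier and 5 rose ipsilaterally, with a median log2 fold change of 1.22, against 4.09% and -0.02 over all genes. Slfn3 (2.76, edgeR adjusted p = 0.0249), Gbp2, an interferon-induced GTPase (1.72, adjusted p = 0.00466), and Jak2, a kinase of the interferon gamma receptor (0.98, adjusted p = 0.0347), were among those called by edgeR, and Ifit3 (0.94, adjusted p = 0.34) was not. None of the 8 was called contralaterally. Sham rat 94, at 93.3 CPM ipsilaterally for the summed list, was not the highest sham rat (115 CPM).

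Summed markers of several immune cell types were higher after PBBI in the ipsilateral cortex. The chains were higher there by mean CPM, but neither was called by edgeR. The part of the marked cells in the levels of the chains was not tested. The 14 nameable macrophage and monocyte markers summed to 577 to 1480 CPM in PBBI ipsilateral and 203 to 445 CPM in sham ipsilateral cortex, without overlap, and 10 of the 13 tested rose by edgeR, against 4.09% of all genes, with names that come mostly from the study's own calls. The 5 dendritic cell markers summed to 9.04 to 22.2 CPM against 5.53 to 7.09 CPM, but different genes made up the 2 sums. By group means, the sham sum was mostly Flt3 (5.56 CPM, against 2.77 in PBBI). The largest part of the PBBI sum was Itgax (8.22 CPM, against 0.258 in sham). Itgax, Clec9a and Batf3 rose by edgeR, against 4.09% of all genes. The other 2 did not pass, Ccr7 at a log2 fold change of 2.14 (edgeR adjusted p = 0.148) and Flt3 lower in level (median 2.38 CPM against 5.67, edgeR adjusted p = 0.125). The 2 B cell markers were close to 0, at 0.118 to 0.582 CPM against 0.0267 to 0.148 CPM, and Pax5 was at 0 in all 5 sham ipsilateral libraries. The 4 T cell markers summed to 2.85 to 10.5 CPM against 0.254 to 2.14 CPM. By group means, the PBBI sum was mostly Cd8a (4.74 CPM). Cd3d was too low to be tested (mean 0.387 CPM in PBBI and 0.0634 CPM in sham), and Cd8b and Cd2 did not pass. Of the 3 tested, 1 rose by edgeR (Cd8a, log2 fold change 3.31), against 4.09% of all genes. The 6 neutrophil markers overlapped, at 11.1 to 192 CPM against 5.35 to 51.3 CPM, with none of 4 called and Elane at 0 in all sham ipsilateral libraries. The sum of the 2 microglial markers was 10.8 to 27.6 CPM against 26.3 to 41.6 CPM and was nearly all Tmem119, which did not pass the test (log2 fold change -0.92, edgeR adjusted p = 0.0799). The other, Siglech, was too low to be tested, at 0.0144 to 0.36 CPM in PBBI and 0 to 0.038 CPM in sham.

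Of resident cortical cells, 3 astrocyte markers summed to 1830 to 6850 CPM in PBBI ipsilateral and 386 to 947 CPM in sham ipsilateral cortex. The sum was mostly Gfap, which was higher (log2 fold change 2.99, edgeR adjusted p = 0.00407). Aldh1l1 was lower (-0.96, edgeR adjusted p = 0.0418). Gjb6 was lower in level (median 9.93 CPM against 39.1) and did not pass (-1.53, edgeR adjusted p = 0.12). The median log2 fold change of the 3 astrocyte markers was -0.96. The 3 vascular markers overlapped, at 41.0 to 80.7 CPM against 58.2 to 83.6 CPM, and Vwf rose (log2 fold change 1.24, edgeR adjusted p = 0.0112). Cd34 (-1.16, edgeR adjusted p = 0.152) and Rgs5 (-0.79, edgeR adjusted p = 0.316) did not pass, and the median of the 3 was -0.79. No marker of the neuron list (7 genes) or the oligodendrocyte list (5 genes) could be paired with an identifier, so the neuronal identity of the tissue was not checked here.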

How the data were processed

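Ribosome-depleted RNA libraries were sequenced as paired ends, aligned with STAR 2.4.2a to the rat build Rnor 6.0 and counted per gene with featureCounts 1.4.3-p1, per the labels and the study's methods. The values are the raw counts the authors deposited. How reads that map to several genes were counted is not given in the sources used here. Symbols came from the study's gene tables, which paired 1822 of 32545 identifiers, and promoters from RefSeq (GRCr8). The 2 members and all lists were chosen with earlier results of these data known, and the study had listed both members for their association with sleep time in these samples. Sleep values per rat are not used here.

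CPM (counts scaled to the library size) used TMM library sizes, and log2 CPM a prior count of 2. Counts were tested with edgeR 4.0.16 (quasi-likelihood, filterByExpr, TMM, Benjamini-Hochberg, called at an adjusted p of 0.05 or less) in R 4.3.3, on the libraries of each comparison. DESeq2 1.42.0, limma 3.58.1 (voom with quality weights), other scalings and filters, all 22 libraries in the same fit, a rat block and leaving out each rat were the alternatives. The edgeR, DESeq2 (without a prior) and voom fits of the comparisons were run on simulated counts first, and the other steps were not. Both hemispheres of a rat carry the same animal number in the labels, and same-numbered libraries deviated together from their group means (r from 0.246 to 0.758 in 11 rats), so they are paired. Permutation tests over rats (scipy 1.17.1) were two-sided, exact, or with 100000 resamples for 11-rat correlations. No 2 libraries of a group agreed within sampling noise (chi-square per degree of freedom of at least 90.99). The ipsilateral library of PBBI rat 85 stood apart. Its pairs within the group were at 1380 to 1781, and the other PBBI ipsilateral pairs were at 110.6 to 367.3. The named genes were the 2 members, each nameable gene of the class II list, the 2 highest and 2 lowest ipsilateral fold changes of the class I and interferon lists, and the 5 named genes with the highest r for each member. Sham rat 94 and the genes named outside this rule (Tap1, Psmb8, Erap1 and the single cell type markers) were singled out after their values were seen.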

Additional observations from a re-analysis of the deposited data

Results flagged for a closer look

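The log2 ratio of RT1-Db1 to RT1-Da in the contralateral cortex of sham rat 91 was -1.29, and the nearest of the other 4 sham rats was at -0.66. The sample was noted because its gap to the others, over the range of the group, was above the limit of Dixon's test. It was the only such sample of 16 groups of values examined, where chance flags about 1 in 20. The rat had 236 counts of RT1-Da and 95 of RT1-Db1 in that library, and its ipsilateral cortex had the lowest CPM of both chains in the study.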

How the results depend on the processing

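With limma voom and quality weights the ipsilateral difference of RT1-Da was 1.13 (adjusted p = 0.0488) and passed the threshold, RT1-Db1 did not pass (adjusted p = 0.228), and the contralateral differences turned to -0.20 and -0.12. Within the PBBI rats RT1-Da also passed with DESeq2 (1.28, adjusted p = 0.0118), with voom (1.59, adjusted p = 0.00653) and with the rat as a block (1.33, adjusted p = 0.0302), and RT1-Db1 with DESeq2 only (1.27, adjusted p = 0.0217). The block changed no other call of the 2 chains. Other scalings and filters changed no call or direction of either chain, and the cause of the changes above was not tested.

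Counts of genes called depended more on the method. Ipsilaterally they were 1639 and 1628 by DESeq2 without and with a prior, 5014 by voom, 1655 with all 22 libraries in the fit, and 316 to 2186 when a rat was left out, highest without PBBI rat 85. Contralaterally they were 3 by DESeq2 without a prior, 1 by voom, and 0 to 1 when a rat was left out. For the injury effect that differs between hemispheres they were 353 by DESeq2, 1663 by voom, 708 with the rat block, and 0 to 255 when a rat was left out. Within PBBI they were 1535 by DESeq2, 3695 by voom, 1354 with all libraries, 1646 with the rat block, and 1 to 1149 when a rat was left out, lowest without rat 88 and highest without rat 85.

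Leaving out each rat in turn moved the ipsilateral log2 fold change of RT1-Da between 0.93 and 1.69 (adjusted p from 0.0575 to 0.413) and that of RT1-Db1 between 0.84 and 1.65 (adjusted p from 0.127 to 0.584), with no call gained. Contralaterally the range was 0.36 to 0.82 and 0.34 to 0.76, and for the injury effect that differs between hemispheres 0.36 to 1.17 and 0.32 to 1.16, also with no call gained. The correlation of RT1-Db1 between hemispheres ranged from 0.394 to 0.722 and passed an adjusted p of 0.05 without rat 84 (0.706), 94 (0.688) or 96 (0.722). RT1-Da had at least 136 counts in each library and RT1-Db1 at least 91. Reads that could come from more than 1 class II gene limit both in a way these counts cannot show.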
